A study of Mus musculus with 9 samples.

Results

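The 10 genes described here mark the hormone-secreting cells of the gut lining and were read from RNA-seq of colonic intestinal epithelial cells (IECs). They were found by symbol in a table of 46095 genes, in which all 10 of 10 were present. They comprise the granins *Chga* and *Chgb*, the serotonin-synthesis gene *Tph1*, the hormone genes *Pyy*, *Gcg* and *Insl5* of the distal gut, the hormone genes *Sct*, *Cck* and *Nts* that are known mainly from the small intestine, and the somatostatin gene *Sst*. IECs were released with EDTA from the colons of mice on a C57BL/6j background, in which Cre driven by the Villin promoter deletes floxed genes throughout the intestinal epithelium. The 4 *Smad4 Vil-KO* (single-knockout) libraries carry the deletion of *Smad4* in that epithelium. The 5 *Smad4 Vil-KO;Setd2 Vil-KO* (double-knockout) libraries carry that of both *Smad4* and *Setd2*, so that the loss of *Smad4* is shared by both groups. All mice had received the carcinogen azoxymethane (AOM, 10 mg/kg, at 8 weeks of age) and 1 course of 2% dextran sodium sulphate (DSS), a colitis-inducing agent, and were collected at 10 days. No untreated or wild-type library was analysed here, and the question is how these genes differed once *Setd2* was also deleted.

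Enteroendocrine cells are rare secretory cells scattered through the gut epithelium, which store peptide hormones or serotonin in dense-core granules and release them in response to nutrients, microbial products and stretch. Granins are the packing proteins of these granules and are found in most such cells, whereas the hormones divide the cells into subtypes. Enterochromaffin cells make serotonin with tryptophan hydroxylase 1, L cells make peptide YY and the glucagon-like peptides, L cells of the colon also make insulin-like peptide 5, and D cells make somatostatin. Secretin, cholecystokinin and neurotensin are made by cells that are most frequent in the small intestine. In bulk RNA of this kind, fewer cells of a type and less RNA per cell cannot be told apart.

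Both granins and *Tph1* were higher in the double-knockout libraries by 2.80- to 3.65-fold, with no overlap between the genotypes. *Cck* and *Nts*, at low counts, were higher as well. Both had at most 11 counts in any single-knockout library and passed the filter on low counts only through the double-knockout libraries. Their calls, counted among the 5 below, are therefore not independent of that filter. None of the 3 distal gut hormones passed the test, and *Insl5* stood below the single-knockout libraries in every double-knockout library. Of the 10 genes, 5 passed an adjusted p of 0.05 as higher (quasi-likelihood test of edgeR, Benjamini-Hochberg adjusted), beside 6.76% of all 14593 genes tested. Lower calls numbered 0 of 10 in the same edgeR test, beside 6.54% of all genes. At an unadjusted p under 0.05, 6 were higher and 1 lower, beside 15.3% of all genes in each direction. DESeq2 called 5 higher and 1 lower, beside 7.99% and 7.37% of the 18840 genes it tested, and limma-voom called 5 higher and 0 lower, beside 9.61% and 10.5%. Y-linked counts were high (3857 to 4907) in double-knockout replicates 1, 2 and 5 and at most 28 in the other 6 libraries. *Xist* went the other way, at 5 to 6 counts in those replicates and 17833 to 26617 in the other 6, the pattern of male and female tissue. The labels do not give sex. All 4 single-knockout libraries are among the 6, so genotype is partly confounded with this difference. With a term for this difference, 4 were higher and 0 lower, beside 4.47% and 4.33% of all genes, and in the 6 libraries alone 5 and 0, beside 9.29% and 10.1%. Over the well-counted genes of the whole table, double-knockout replicates 1 and 2 stood apart from replicates 3, 4 and 5: the chi-square per gene between 2 libraries was 43.0 to 65.0 across these sets, 19.2 between replicates 1 and 2, and 9.30 to 26.8 among the other 3. Of the single-knockout libraries, replicate 1 was at 25.2 to 39.0 from the others, which were at 10.8 to 12.003 from each other. The median log2 fold change of the 10 genes was 1.17, beside -0.0006 over all genes tested. The genotypes did not overlap in 5 of the 10 genes, 4 of them higher (8.34% of all genes) and 1 lower (8.87% of all genes).

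The promoters of 4 of these genes are shown: the granins and *Tph1*, which rose without overlap at more than a few counts (*Cck* also rose without overlap, at low counts, and is not shown), and *Insl5*, whose libraries lay lower without overlap. Each is the stretch of 200 bases before the start of transcription in RefSeq's annotation of GRCm38.p6, 5′ to 3′ on the gene's own strand, at chr12:102554741-102554940 (plus strand) for *Chga*, chr2:132781442-132781641 (plus strand) for *Chgb*, chr7:46667378-46667577 (minus strand) for *Tph1* and chr4:103026729-103026928 (minus strand) for *Insl5*. Capitals mark matches to the E-box (CANNTG), to the cyclic AMP response element (CRE, TGACGTCA) and to TATAAA, searched on both strands.
Chga: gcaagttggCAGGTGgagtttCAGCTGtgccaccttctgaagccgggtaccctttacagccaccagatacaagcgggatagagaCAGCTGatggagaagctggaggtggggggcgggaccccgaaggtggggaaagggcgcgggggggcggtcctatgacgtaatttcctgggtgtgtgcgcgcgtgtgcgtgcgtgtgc
Chgb: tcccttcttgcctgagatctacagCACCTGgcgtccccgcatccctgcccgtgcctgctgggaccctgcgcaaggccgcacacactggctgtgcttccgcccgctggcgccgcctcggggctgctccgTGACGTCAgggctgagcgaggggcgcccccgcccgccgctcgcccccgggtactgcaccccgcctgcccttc
Tph1: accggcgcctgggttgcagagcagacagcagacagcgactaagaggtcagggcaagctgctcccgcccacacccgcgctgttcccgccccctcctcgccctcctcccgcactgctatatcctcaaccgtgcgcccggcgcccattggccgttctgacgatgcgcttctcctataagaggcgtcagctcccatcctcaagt
Insl5: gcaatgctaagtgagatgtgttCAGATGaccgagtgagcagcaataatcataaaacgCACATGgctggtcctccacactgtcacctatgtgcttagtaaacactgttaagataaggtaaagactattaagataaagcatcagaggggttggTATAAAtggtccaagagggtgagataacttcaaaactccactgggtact
The *Chga* window holds 3 E-box matches, the *Chgb* window 1 E-box and 1 CRE, the *Insl5* window E-box and TATAAA matches, and the *Tph1* window none. *Tph1* and *Insl5* have further annotated starts, whose windows are not printed. The *Chgb* start lies 364 bases from the nearest start in the GENCODE annotation, in which this window falls inside the gene. Over all 10 genes, 9 windows hold an E-box, which 58.2% of 32851 windows of the same length hold. The CRE occurs in 2 of the 10 (*Chgb* and *Sst*) and in 1.47% of all windows, and TATAAA in 3 (*Gcg*, *Insl5* and *Sct*) and in 9.96%. The palindrome bound by SMAD proteins, GTCTAGAC, is in 0 of the 10 and in 0.107% of all windows. These matches are descriptions of the sequence and were not tested for use. No other annotated gene overlaps any of the 10 genes on either strand.

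The granins are the most general markers of enteroendocrine cells. *Chga* (chromogranin A), on chromosome 12, had 201, 299, 272 and 131 counts in the single-knockout libraries and 921, 880, 616, 764 and 507 in the double-knockout libraries. In CPM, the count scaled to the library's TMM-adjusted total in tested genes, it averaged 14.4 ± 3.41 (SD, n = 4) and 52.8 ± 10.8 (SD, n = 5). Every double-knockout library was above every single-knockout library. The log2 fold change was 1.87 (SE 0.19), a 3.65-fold rise with a 95% interval of 2.71 to 4.91, at an adjusted p of 0.000405.

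*Chgb* (chromogranin B), on chromosome 2, had 416, 747, 686 and 270 counts in the single-knockout libraries and 1405, 1357, 1512, 1641 and 1081 in the double-knockout libraries. Its mean went from 33.7 ± 11.3 to 101.04 ± 17.6 CPM, and again the genotypes did not overlap. It rose by 1.58 on the log2 scale (SE 0.22, adjusted p 0.00165). Within the single-knockout group, replicates 2 and 3 were the higher libraries for both granins. In the double-knockout group replicate 5 was the lowest for both, whereas replicate 3 was the second lowest for *Chga* (43.1 CPM) and the second highest for *Chgb* (106 CPM). After the mean of each genotype was subtracted, log2 CPM of *Chga* and *Chgb* had an r of 0.74 over the 9 libraries, both genes being read from the same library at each point.

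*Tph1*, on chromosome 7, encodes the rate-limiting enzyme of serotonin synthesis outside the nervous system. It had 37, 81, 74 and 36 counts in the single-knockout libraries and 127, 166, 179, 139 and 102 in the double-knockout libraries. The lowest double-knockout library, at 7.91 CPM, stood above the highest single-knockout library, at 4.81 CPM. Means were 3.65 ± 1.21 and 10.3 ± 2.12 CPM, and the rise was 1.48 on the log2 scale (SE 0.25, adjusted p 0.00471). Its spread within the genotypes followed *Chgb* (r = 0.81). *Chga*, *Chgb* and *Tph1* stayed past the threshold in all 20 alternative analyses, with log2 fold changes of 1.71 to 1.98, 1.42 to 1.80 and 1.33 to 1.68.

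**Figure D1:**
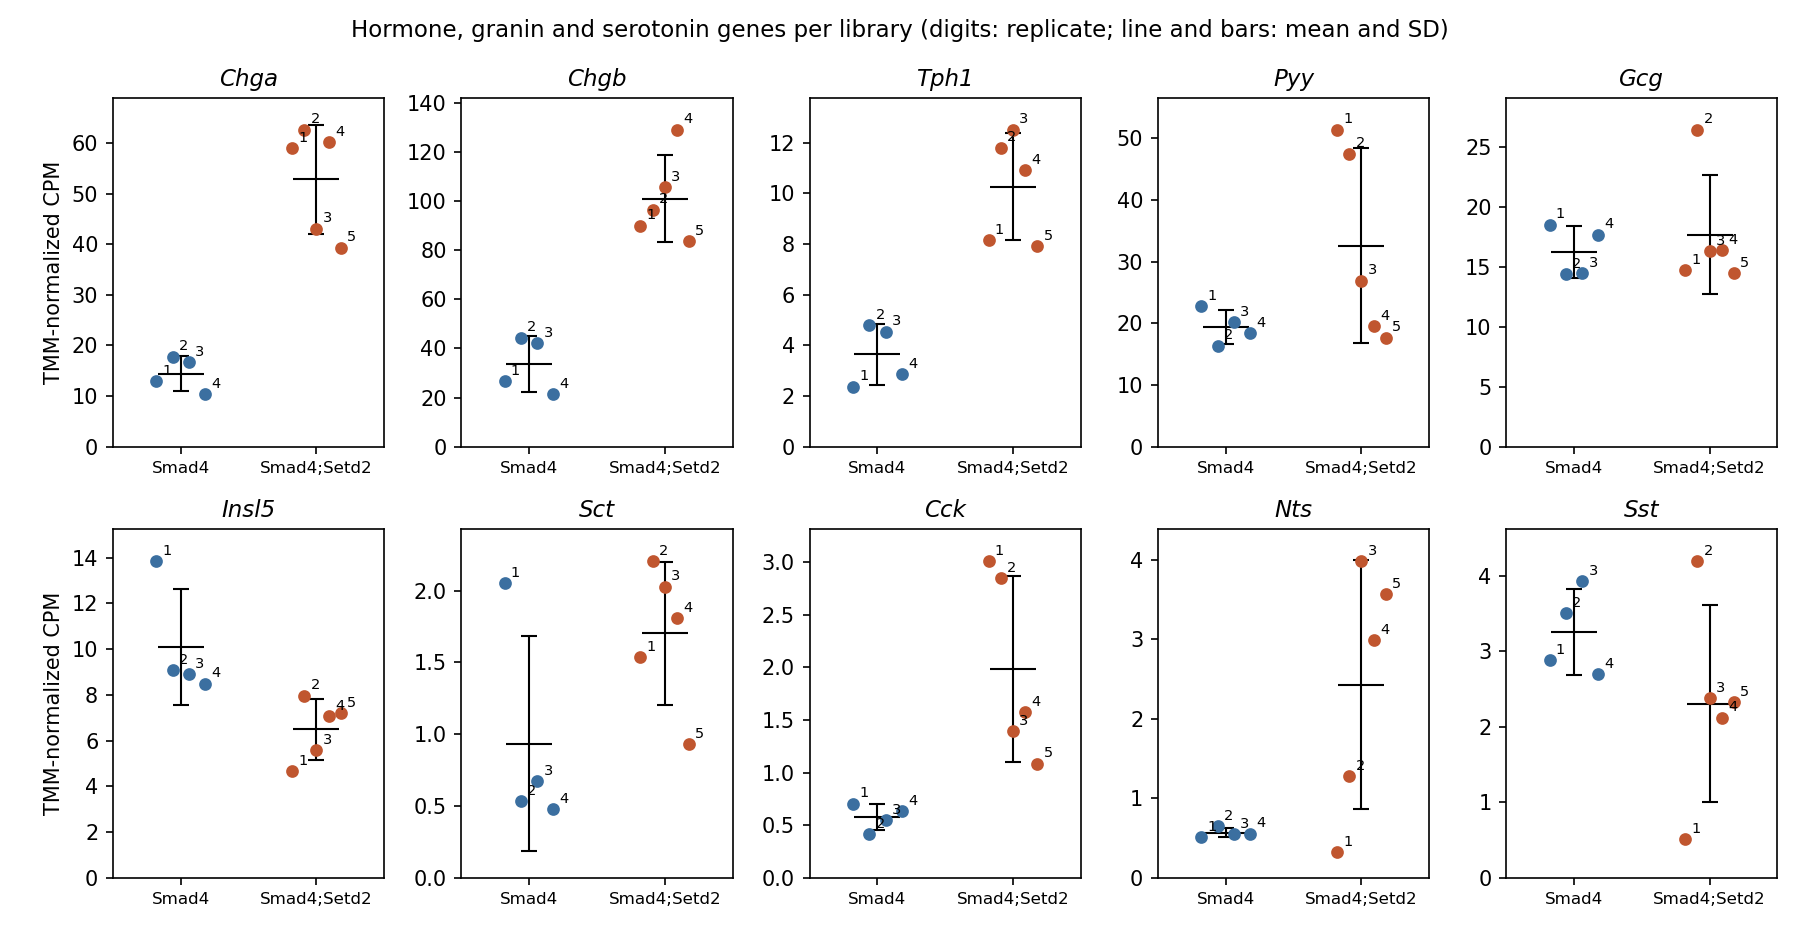
TMM-scaled CPM (linear axes from 0) of the 10 genes in each of the 4 single-knockout and 5 double-knockout libraries (marked Smad4 and Smad4;Setd2), 1 panel per gene, with digits for the replicate and the mean ± SD. *Chga*, *Chgb*, *Tph1* and *Cck* separate upwards and *Insl5* downwards, whereas *Pyy*, *Gcg*, *Sct*, *Nts* and *Sst* overlap.

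Of the distal gut hormones, *Pyy* encodes peptide YY, which slows gastric emptying and reduces food intake. It had 356, 276, 328 and 232 counts in the single-knockout libraries and 802, 668, 385, 249 and 228 in the double-knockout libraries. Only replicates 1 and 2 of the double-knockout group stood far above the rest, at 51.4 and 47.5 CPM, and replicates 4 and 5 were within the single-knockout range of 16.4 to 22.8 CPM. The log2 fold change of 0.75 (SE 0.31, 95% interval 0.07 to 1.43) did not pass (adjusted p 0.130), and it was 0.92 with an adjusted p of 0.0451 without double-knockout replicate 5. The value for *Pyy* with the Y-linked term was 0.26 (adjusted p 0.679).

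*Gcg* encodes proglucagon, from which L cells cut the glucagon-like peptides. Its counts were 289, 242, 236 and 223 in the single-knockout libraries and 230, 372, 234, 209 and 187 in the double-knockout libraries. Apart from replicate 2 of the double-knockout group at 26.5 CPM, all libraries of both genotypes lay between 14.4 and 18.5 CPM. Means were 16.3 ± 2.16 and 17.7 ± 4.98 CPM, and the log2 fold change was 0.12 (95% interval -0.29 to 0.53, adjusted p 0.693). The interval leaves out a change of the size seen in *Chga*. Without double-knockout replicate 2 the value was -0.066.

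*Insl5* encodes insulin-like peptide 5, an orexigenic hormone of colonic L cells. It had 216, 153, 145 and 107 counts in the single-knockout libraries and 73, 112, 80, 90 and 93 in the double-knockout libraries. In CPM the single-knockout libraries were at 13.9, 9.09, 8.91 and 8.49 and the double-knockout libraries at 4.68, 7.97, 5.59, 7.08 and 7.21, so that the groups did not overlap but came within 1 CPM of each other. The log2 fold change was -0.63 (SE 0.21), and it missed the threshold in edgeR (adjusted p 0.0668) and passed in DESeq2 (-0.64, adjusted p 0.0319). Without single-knockout replicate 1, the highest library, it was -0.44 (adjusted p 0.201).

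The hormones that are known mainly from the small intestine were present at low counts in these colonic libraries. *Cck* encodes cholecystokinin, which contracts the gallbladder and stimulates pancreatic enzyme release. It had 11, 7, 9 and 8 counts in the single-knockout libraries and 47, 40, 20, 20 and 14 in the double-knockout libraries. All double-knockout libraries were higher, replicates 1 and 2 the most. The rise was 1.78 on the log2 scale (SE 0.39, adjusted p 0.0148). With the Y-linked term it was 1.36 (adjusted p 0.0934), and without single-knockout replicate 3 it was 1.76 (adjusted p 0.0535).

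*Nts* encodes neurotensin, a peptide of ileal N cells that promotes fat absorption. It had 8, 11, 9 and 7 counts in the single-knockout libraries and 5, 18, 57, 38 and 46 in the double-knockout libraries. Replicates 3, 4 and 5 of the double-knockout group were high, replicate 2 was intermediate, and replicate 1 lay below all single-knockout libraries. The log2 fold change was 2.07 (SE 0.60, adjusted p 0.0448). Leaving out any 1 of the 4 single-knockout libraries lost the call (adjusted p 0.0935 to 0.118). With any 1 of double-knockout replicates 2 to 5 left out, the gene no longer passed the filter on low counts. High and low libraries were the reverse of those for *Pyy* and *Cck*: within genotypes, r was -0.84 between *Nts* and *Pyy* and -0.86 between *Nts* and *Cck*, and 0.93 between *Pyy* and *Cck*. In the double-knockout group these genes largely followed the split of replicates 1 and 2 from 3, 4 and 5 in the whole table, whose part in these values was not tested.

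*Sct* encodes secretin, which stimulates bicarbonate secretion by the pancreas. Its counts were 32, 9, 11 and 6 in the single-knockout libraries and 24, 31, 29, 23 and 12 in the double-knockout libraries. Replicate 1 of the single-knockout group stood at 2.05 CPM, within the double-knockout range, and the other 3 were at or below 0.676 CPM. The log2 fold change of 0.85 (SE 0.46) did not pass (adjusted p 0.232), and without single-knockout replicate 1 it was 1.58 (adjusted p 0.0353).

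*Sst* encodes somatostatin, which D cells make along the whole gut and which inhibits the release of most other gut hormones. Its counts were 45, 59, 64 and 34 in the single-knockout libraries and 8, 59, 34, 27 and 30 in the double-knockout libraries. In the double-knockout group, replicate 1 was the lowest of all libraries at 0.513 CPM and replicate 2 the highest at 4.20 CPM. The log2 fold change was -0.50 (95% interval -1.44 to 0.43, adjusted p 0.451), and it was -0.24 without double-knockout replicate 1 and -0.83 without replicate 2.

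**Figure D2:**
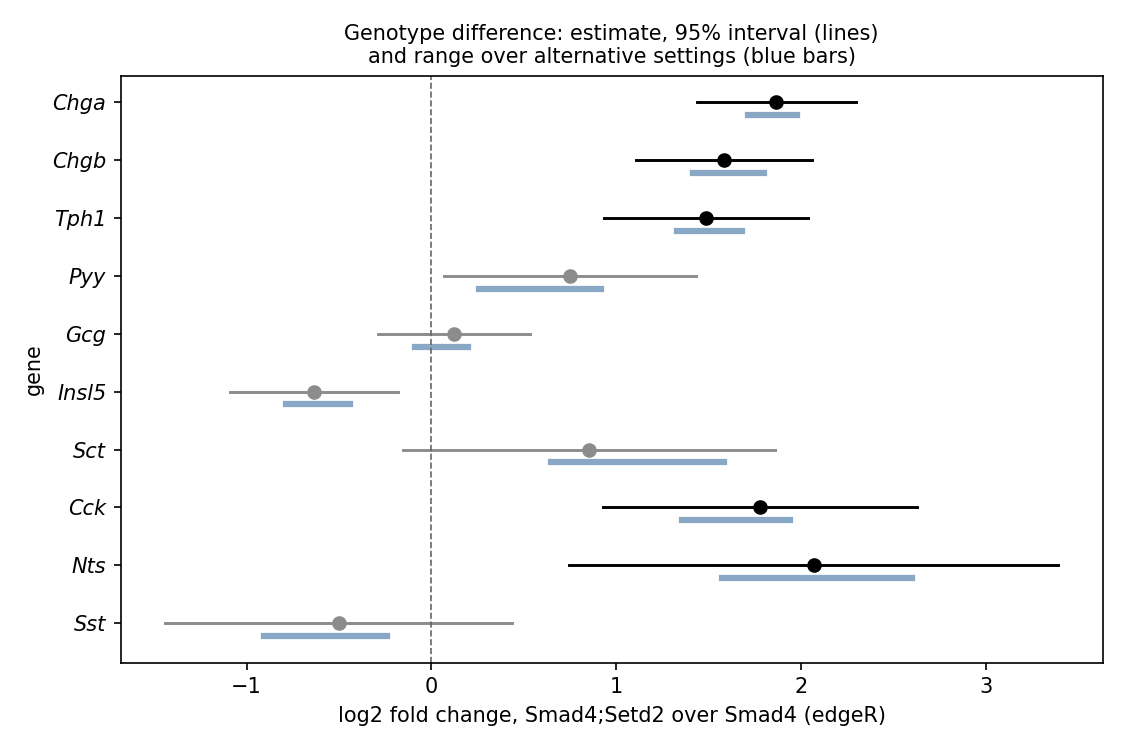
Log2 fold change of the 10 genes, double-knockout over single-knockout (edgeR), on the horizontal axis and 1 gene per row, with 95% intervals (lines), the range over the alternative analyses (blue bars) and black for an adjusted p under 0.05. The granins and *Tph1* lie between 1.48 and 1.87, *Cck* (1.78) and *Nts* (2.07) have wider intervals, and *Insl5* is at -0.63.

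The order of the genes changed accordingly when CPM was divided by the length of the merged exons in kilobases. In the single-knockout libraries *Pyy* was highest, at a mean of 31.1 CPM per kb, followed by *Gcg* at 15.0, *Insl5* at 13.9, *Chgb* at 12.3 and *Chga* at 7.67. The ranges of *Gcg*, *Insl5* and *Chgb* overlapped, so these neighbours did not differ beyond their spread, whereas *Pyy* was above all of them in every library. In the double-knockout libraries *Pyy* (52.2), *Chgb* (36.9) and *Chga* (28.1) led with overlapping ranges, and *Gcg* (16.3), whose range overlapped with that of *Chga*, and *Insl5* (8.99) came after them. *Sst* came next at 4.52 CPM per kb in the single-knockout and 3.20 in the double-knockout libraries, where *Sct* (3.19) was not separated from it and stood above it in replicates 1, 3 and 4. *Sct*, *Tph1*, *Cck* and *Nts* otherwise had the lowest levels, at means of 0.456 to 3.19 CPM per kb. The length is that of all annotated exons and can differ from the transcripts in use.

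The make-up of the enteroendocrine RNA was also described without a test, as counts of each gene per 100 counts of *Chga* in the same library. This removes any difference in overall depth, but since *Chga* itself rose, a gene that did not change falls in these units. *Chgb* was at 229 in the single-knockout and 196 in the double-knockout libraries, and *Tph1* at 25.05 and 20.0, with overlapping ranges for both. *Cck* (4.31 and 3.65), *Sct* (6.89 and 3.24) and *Nts* (4.08 and 5.18) overlapped too. The *Sct* mean of the single-knockout libraries rests on replicate 1 at 15.9, the others being at 3.01 to 4.58, and *Nts* ran from 0.543 to 9.25 in the double-knockout libraries.

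Among the L cell and D cell hormones, *Pyy* was at 177, 92.3, 121 and 177 counts per 100 of *Chga* in the single-knockout libraries and at 87.1, 75.9, 62.5, 32.6 and 45.0 in the double-knockout libraries. *Gcg* averaged 120.4 and 33.9, *Insl5* 73.4 and 12.8, and *Sst* 22.9 and 4.51. For these 4 genes the highest double-knockout library was below the lowest single-knockout library, the nearest being 87.1 and 92.3 for *Pyy*. The separation depended on the denominator: per 100 CPM of the summed secretory granule list, *Pyy* was at means of 6.07 and 10.4, *Gcg* at 5.08 and 5.54 and *Sst* at 1.03 and 0.709, all with overlapping ranges, and of the 4 only *Insl5* (3.13 and 2.02) remained lower without overlap. The sum of that list had means of 319.8 and 319.5 CPM, so these ratios largely repeat plain CPM and are not a second scaling to enteroendocrine RNA. Among the L cell hormones themselves, *Insl5* per 100 counts of *Gcg* was 48.0 to 74.7 in the single-knockout and 30.1 to 49.7 in the double-knockout libraries, and *Pyy* per 100 counts of *Gcg* 104 to 139 and 119 to 349, so that both overlapped.

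**Figure D3:**
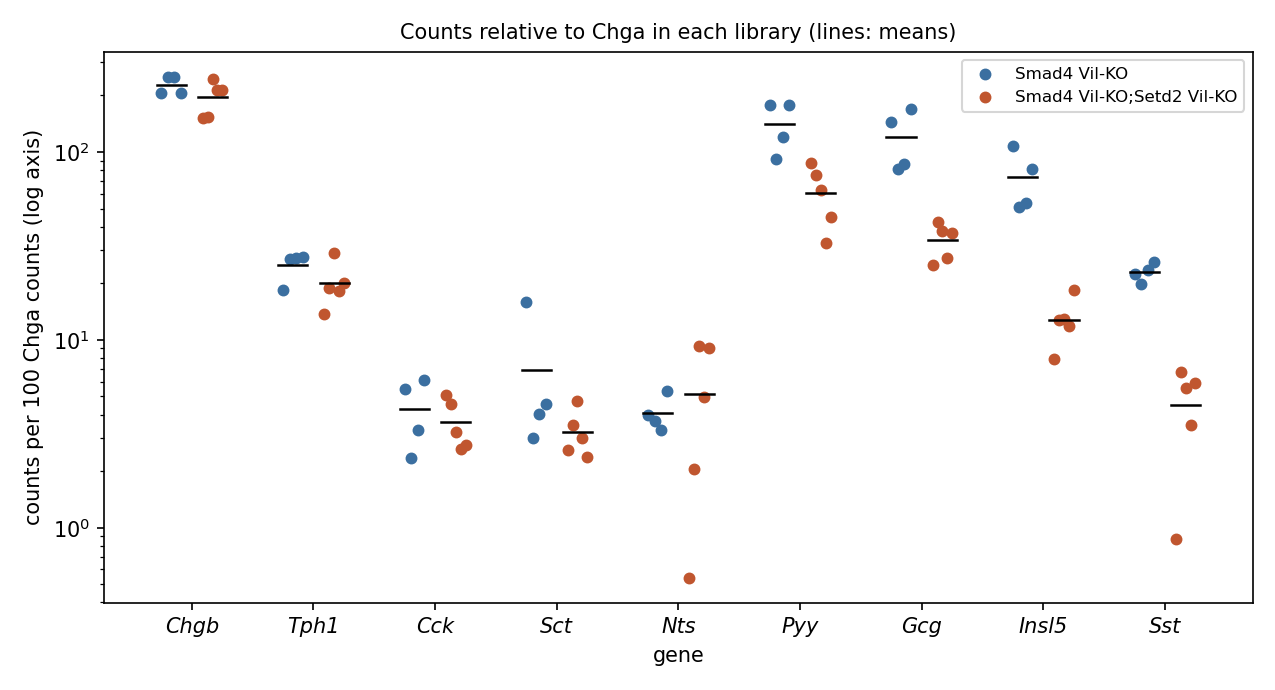
Counts of 9 genes per 100 counts of *Chga* in the same library (log axis), 1 point per library and a line at each mean. *Chgb*, *Tph1*, *Cck*, *Sct* and *Nts* overlap between the genotypes, and *Pyy*, *Gcg*, *Insl5* and *Sst* do not, with *Insl5* at 73.4 and 12.8.

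As shares of the summed counts of the 10 genes, *Chga* made up 12.4% to 15.9% in the single-knockout libraries and 19.6% to 25.3% in the double-knockout libraries. *Chgb* averaged 32.1% and 44.3%, with overlapping ranges of 25.6% to 39.6% and 36.6% to 51.3%. *Gcg* averaged 16.2% and 7.69% and *Insl5* 9.90% and 2.89%, both without overlap. As the granins rose, the share of a gene that did not change falls, and in CPM *Gcg* was at 16.3 and 17.7. The 10 genes together summed to 102.9 ± 13.5 (SD, n = 4) and to 229 ± 33.0 (SD, n = 5) CPM. Without the 2 granins, the remaining 8 were at 49.8 to 63.8 and 55.2 to 104 CPM, which overlapped.

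**Figure D4:**
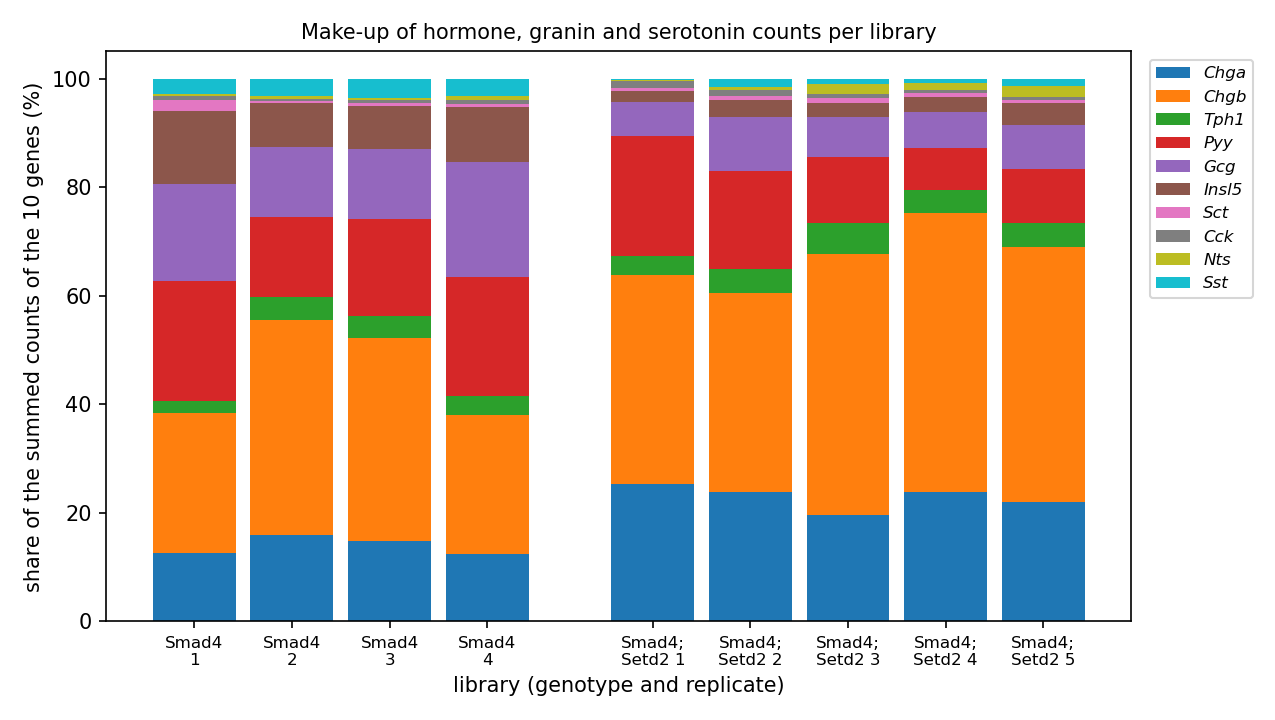
Share (%) of each gene in the summed counts of the 10 genes, 1 stacked bar per library. In the 5 double-knockout bars *Chga* takes a larger and *Gcg*, *Insl5* and *Sst* a smaller part than in any of the 4 single-knockout bars, and *Insl5* averages 9.90% and 2.89%. The share of a gene that did not change falls where the granins rise.

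Genes that work with the 10 were read from 7 lists compiled with earlier results of these data known, on hormones, granules, serotonin, transcription factors, sensors, receptors and peptidases. Of 64 tested genes in these lists, 15 were higher and 2 lower, beside 6.76% and 6.54% of all genes. At an unadjusted p under 0.05, 27 were higher and 6 lower, beside 15.3% of all genes each way. DESeq2, which tested 78 genes of these lists, called 18 and 4 (7.99% and 7.37% of all genes), all among the 64 tested in edgeR. The calls of limma-voom were 19 and 3 (9.61% and 10.5%), and the counts of single lists are to be read against these shares. Among 10 other gut hormones, 4 were tested, of which 1 was higher and 1 lower in edgeR and in limma-voom, and 1 higher and 2 lower in DESeq2 and at an unadjusted p under 0.05. *Ghrl*, the gene of ghrelin, the appetite-stimulating hormone of the stomach and upper gut, had 4, 10, 5 and 6 counts in the single-knockout libraries and 55, 24, 105, 70 and 58 in the double-knockout libraries. It rose 10.9-fold without overlap (log2 fold change 3.44, SE 0.46, adjusted p 0.0015). Like *Cck* and *Nts*, it passed the filter on low counts only through the double-knockout libraries. *Ppy*, the gene of pancreatic polypeptide, a relative of peptide YY, went the other way, with 20 to 33 counts in the single-knockout and 5 to 12 in the double-knockout libraries (log2 fold change -1.43, adjusted p 0.0188). *Tac1*, which encodes substance P and is also a product of enterochromaffin cells, was at 12.5 and 5.95 CPM and missed the threshold in edgeR (log2 fold change -1.08, adjusted p 0.0581). *Gip*, *Gast*, *Ucn3* and *Npw* had 0 counts in all 9 libraries.

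Of 19 tested granule and exocytosis genes, 4 were higher and 0 lower in edgeR, and 10 and 1 at an unadjusted p under 0.05. DESeq2 and limma-voom each called 5 higher and 0 lower. *Cpe*, the carboxypeptidase that trims prohormones, went from 9.43 to 26.3 CPM (log2 fold change 1.47, adjusted p 0.0113). The granins *Scg2* (1.41) and *Scg3* (1.48) and the vesicle GTPase *Rab3c* (1.99) rose as well. *Pcsk1*, the prohormone convertase that cuts proglucagon in L cells, was at 18.1 and 14.6 CPM and did not pass (log2 fold change -0.31, adjusted p 0.265). The list had a median log2 fold change of 0.67.

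In the serotonin pathway, 2 of 9 tested genes were higher and 0 lower in edgeR, DESeq2 called 2 and 0 and limma-voom 4 and 0, and 3 were higher and 0 lower at an unadjusted p under 0.05. *Slc18a1*, the vesicular monoamine transporter of enterochromaffin cells, went from 3.16 to 7.53 CPM (log2 fold change 1.25, adjusted p 0.00701). *Gch1*, the first enzyme in making the cofactor of tryptophan hydroxylase, went from 23.8 to 40.6 CPM (log2 fold change 0.77, adjusted p 0.00217). *Ddc*, which makes serotonin from the product of *Tph1*, had means of 72.0 and 74.0 CPM, a difference of 0.04 on the log2 scale (adjusted p 0.933). *Slc6a4*, the transporter that takes serotonin back up, was at 14.2 and 19.1 CPM (adjusted p 0.218).

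Of 17 tested transcription factors of the lineage, 4 were higher and 1 lower in edgeR, DESeq2 called 5 and 1 and limma-voom 6 and 1, and 8 and 2 had an unadjusted p under 0.05. *Neurod1* (log2 fold change 1.56), *Myt1* (1.54), *Etv1* (1.26) and *Rfx6* (1.11) rose and *Foxa2* fell by 0.67, whereas *Neurog3*, which starts the lineage, was at 1.42 and 2.05 CPM (adjusted p 0.335). Of 5 tested nutrient and microbial sensors, *Ffar2*, the short-chain fatty acid receptor, was higher (0.46, adjusted p 0.022) and 0 were lower in edgeR, DESeq2 and limma-voom and at an unadjusted p under 0.05.

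Receptors for the hormones were mostly near 0 in these epithelial libraries, so that only 6 of 23 were tested. None was higher or lower in edgeR (0 and 0), while at an unadjusted p under 0.05, in DESeq2 and in limma-voom 0 were higher and 1 lower. That gene was *Sstr2*, the somatostatin receptor, named after its values were seen, with means of 2.13 and 1.18 CPM and a difference of -0.86 on the log2 scale (adjusted p 0.0501). Of 4 tested peptidases that cut gut hormones, 3 were higher and 0 lower in edgeR, DESeq2 called 4 and 0 and limma-voom 2 and 0, and 4 and 0 had an unadjusted p under 0.05. *Dpp4*, which inactivates glucagon-like peptide 1 and shortens peptide YY, rose 1.39-fold (adjusted p 0.00956). *Enpep* went from 1.16 to 65.4 CPM (log2 fold change 5.84, adjusted p 0.000873), and *Anpep* from 4.45 ± 0.960 to 21.5 ± 17.2 CPM (2.28, adjusted p 0.0407), both being brush-border enzymes of enterocytes. *Anpep* overlapped between the genotypes, at 3.72 and 5.45 CPM in double-knockout replicates 5 and 3.

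Of these 17 called genes, *Ghrl*, *Scg3*, *Cpe*, *Rab3c*, *Slc18a1*, *Gch1* and *Enpep* (7 genes) kept their call in every alternative that tested them. The other 10 lost it in at least 1, with largest adjusted p-values of 0.0512 to 0.221. All 10 lost it without the 2 libraries highest in small intestinal genes (double-knockout replicates 2 and 4), which was the only such setting for *Foxa2* and *Dpp4*. Leaving out a single-knockout library lost the call of *Ppy* (replicate 2 or 4), *Myt1* (3), *Scg2* and *Ffar2* (1, 2 or 3), *Neurod1* (1, 3 or 4), *Rfx6* (1, 2 or 4), *Etv1* (2, 3 or 4) and *Anpep* (any of the 4). The calls of *Etv1* and *Anpep* were also lost without double-knockout replicate 1 or 2, and that of *Anpep* without replicate 4. With the Y-linked term, *Ppy* (-1.54, adjusted p 0.0715), *Rfx6* (1.12, adjusted p 0.0723), *Etv1* (0.81, adjusted p 0.221) and *Anpep* (1.91, adjusted p 0.147) lost their calls, and in the 6 libraries without Y-linked counts *Rfx6* (1.12, adjusted p 0.0569) and *Etv1* (0.81, adjusted p 0.213) did. *Rfx6* and *Etv1* also lost them with a replicate block (adjusted p 0.0811 and 0.0841) and without the filter on low counts (adjusted p 0.0521 and 0.0612). *Anpep* lost its call in limma-voom and with a robust dispersion estimate in edgeR.

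**Figure D5:**
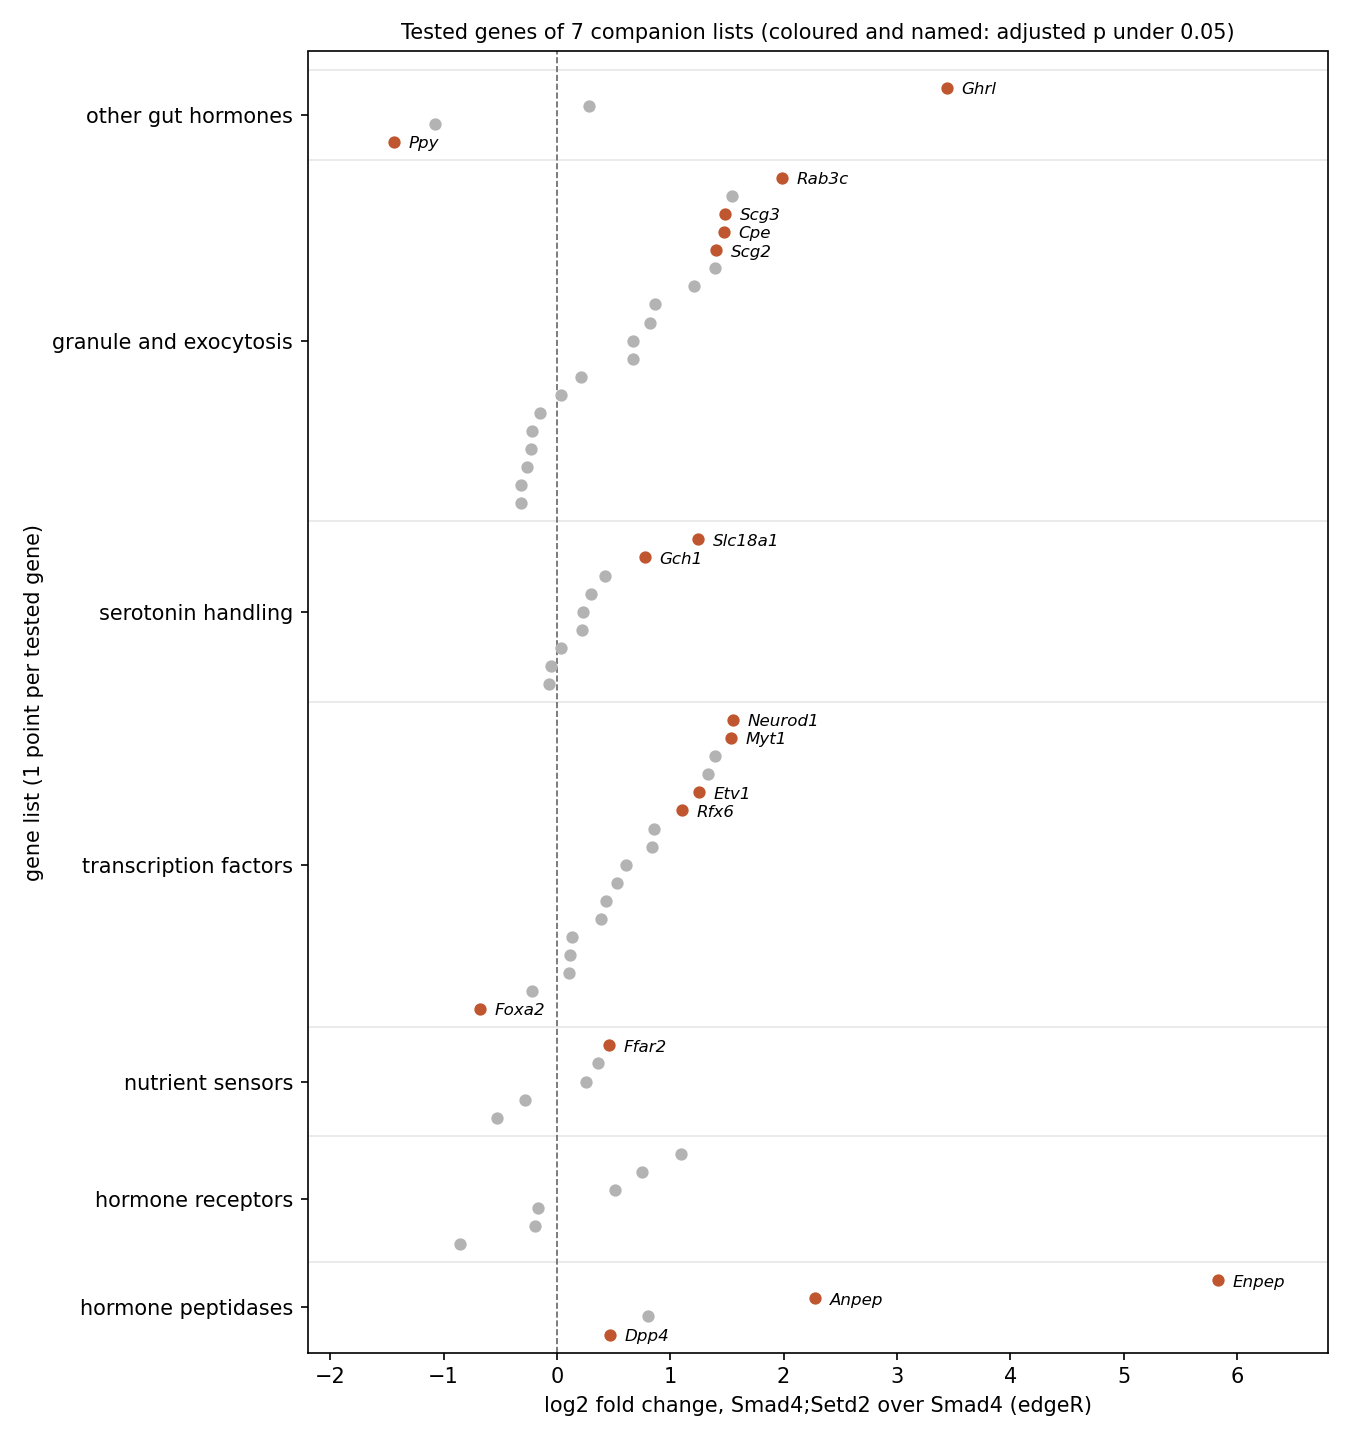
Log2 fold change (double-knockout over single-knockout, edgeR) of the 64 tested genes of 7 lists, 1 point per gene, with genes past an adjusted p of 0.05 coloured and named. *Enpep* (5.84) and *Ghrl* (3.44) lie farthest to the right, and *Ppy* (-1.43) and *Foxa2* (-0.67) are the 2 called lower.

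Markers of gut region moved with these genes. Counts here and in the next paragraph are to be read against the shares over all genes. These were 6.76% higher and 6.54% lower in edgeR, 7.99% and 7.37% in DESeq2, 9.61% and 10.5% in limma-voom, and 15.3% each way at an unadjusted p under 0.05. Of 13 tested genes of small intestinal enterocytes, 10 were higher and 0 lower in edgeR, DESeq2 and limma-voom called 11 (1 of them not tested in edgeR) and 10 higher and 0 lower, and 12 and 0 had an unadjusted p under 0.05. The summed level of the list was 1139 to 1444 CPM in the single-knockout and 1746 to 3148 CPM in the double-knockout libraries. Of 14 tested colonic genes, 6 were lower and 0 higher (DESeq2 6 and 0, limma-voom 8 and 0, unadjusted 8 and 0), among them the distal *Hoxd13* (log2 fold change -0.95). Goblet and tuft cells are the other secretory cells of the epithelium. Of their 10 tested markers, 0 were higher and 1 lower in edgeR, DESeq2 and limma-voom (0 and 2 unadjusted), the mucin gene *Muc2* (-1.62), which is also counted among the 6 lower colonic genes. Of the 10, 0 had a positive log2 fold change, and their median was -0.67. The list summed to 10464 to 29067 CPM in the single-knockout and 3197 to 11877 CPM in the double-knockout libraries, which overlapped, single-knockout replicate 1 being the highest and the next at 13723 CPM, and its part in the results was not tested. Without double-knockout replicates 2 and 4, the 2 libraries with the highest summed small intestinal genes, *Chga*, *Chgb* and *Tph1* remained past the threshold, *Cck* was at 1.68 (adjusted p 0.0618), and *Nts* no longer passed the filter. The part of region in the rise of these genes was not tested.

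Other sources of the same transcripts were read from their defining markers. Of 14 markers of enteric neurons and glia, which also express granins and somatostatin, *Sox10* had 0 counts and *Prph* and *Nos1* at most 2 in any library. The list summed to 5.04 to 6.83 CPM in the single-knockout and 5.80 to 8.40 CPM in the double-knockout libraries. Of its 4 tested genes *Elavl4*, named after its values were seen, was higher (log2 fold change 2.54, adjusted p 0.0027). Of 11 pancreas markers, 8 had 0 counts in all libraries, *Ins1*, *Ins2*, *Prss2* and *Cpa1* among them. The list summed to 157 to 223 CPM in the single-knockout and 81.1 to 135 CPM in the double-knockout libraries. Its only tested gene was *Cela1*, named after its values were seen, an elastase-like peptidase, which was lower (log2 fold change -0.99, adjusted p 0.00347) in edgeR and was called lower in DESeq2 and limma-voom too. Its part in the results was not tested. Mast cell markers, listed because mast cells can also express *Tph1*, summed to 143 to 237 CPM in the single-knockout and 90.6 to 186 CPM in the double-knockout libraries, and 0 of 9 tested were higher in edgeR, DESeq2 and limma-voom and at an unadjusted p under 0.05, while 1 was lower in edgeR and 2 in DESeq2, in limma-voom and at an unadjusted p under 0.05. Stromal and muscle markers summed to 32.0 to 51.3 CPM in the single-knockout and 39.5 to 88.9 CPM in the double-knockout libraries. Of their 7 tested genes, 6 had a positive log2 fold change (median 0.45), and 0 were called in either direction in edgeR and limma-voom, while 3 were higher and 0 lower at an unadjusted p under 0.05 and DESeq2 called 1 higher and 1 lower, both not tested in edgeR. Leukocyte markers summed to 59.8 to 115 CPM and 40.5 to 133 CPM, and 0 of 11 were called in edgeR, DESeq2 and limma-voom or had an unadjusted p under 0.05. The part of these cells in the results was not tested. The epithelial markers, *Epcam*, *Cdh1* and *Vil1* among them, were abundant, at 12466 to 15217 CPM in all 9 libraries, and 0 of 9 were called in edgeR (1 higher in DESeq2, in limma-voom and at an unadjusted p under 0.05).

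Across the series, libraries held 12487129 to 17120202 counts, and a single count was worth 0.0594 to 0.0794 CPM. *Setd2* had 1839, 2021, 1615 and 1441 counts in the single-knockout libraries and 902, 1224, 797, 685 and 981 in the double-knockout libraries (log2 fold change -0.77, adjusted p 0.00756). *Smad4*, floxed in both groups, had 698 to 1445 and 515 to 1600 counts (log2 fold change 0.13, adjusted p 0.819, with the sign turned in 6 of 20 alternatives). Counts are per gene, so reads of the deleted exons could not be told from the rest. For each member, the 3 genes with the most similar spread over the 9 libraries, after the genotype means were subtracted, included none of the other members. The closest were *Dtd1* for *Chga* (r = 0.94), *Psmb7* for *Chgb* (0.95), *Usp35* for *Tph1* (0.96), *Zfp280c* for *Pyy* (0.99), *C2cd5* for *Cck* (0.99) and *Snx13* for *Nts* (0.998). Each is the highest of 14592 genes compared over only 9 libraries, where values this high can arise by chance, and no shared regulation was tested.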

How the data were processed

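RNA-seq was performed on colonic IECs, with 4 single-knockout and 5 double-knockout libraries grouped by the genotype in the labels. The authors deposited whole-number counts per gene symbol, without normalization or pooling. The submitters' processing notes name HISAT2 2.0 and mm10, without saying what each was used for. The counting program, annotation and strand setting are not given in the sources used here. All 46095 symbols were kept, 27 of which had been turned into dates.

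Counts were analysed in R 4.3.3 with edgeR 4.0.16. Genes were kept with filterByExpr by genotype (14593 genes, all 10 members), scaled with TMM, and tested two-sided with the quasi-likelihood test over all 9 libraries without covariates, with Benjamini-Hochberg adjustment over all tested genes. A standard error is the size of the log2 fold change divided by the square root of F, and 95% intervals use its t quantiles. CPM uses the TMM factor times the library's total over tested genes. Similarity of genes is Pearson's r of log2 CPM (prior count 2). DESeq2 1.42.0, limma-voom (limma 3.58.1) with quality weights, other scalings and filters, leaving out 1 library at a time, a block for the replicate number, a term for high Y-linked counts, and the 6 libraries without them were alternatives. Leaving out the 2 libraries highest in small intestinal genes was chosen after seeing the data. On counts simulated for 14593 genes from these libraries, edgeR recovered 62 of 100 genes changed by 1 and 86 of 100 changed by 2 (log2), with 8 false calls, as did limma-voom, and DESeq2 recovered 71 and 91 with 40 false calls. The simulated counts were independent draws, without the split between replicates or the Y-linked difference of the real libraries, for which recovery and false calls can differ.

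The members and gene lists were chosen with earlier results of these data known. Named are all members, the genes of the 7 companion lists with an adjusted p under 0.05, the targeted genes and the most similar genes, and other genes named, in the region, marker and companion lists, were chosen after their values were seen. One listed receptor symbol, Ntsr3, had no row in the table. Gene positions and promoter sequences came from GRCm38 annotation, the same assembly as mm10, and RefSeq, in which all 10 members matched. Protein sequences were not used here. The labels do not say that each library is a separate mouse, so p-values and intervals measure only the spread between these samples, which may be technical.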

Additional observations from a re-analysis of the deposited data

Results flagged for a closer look

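In 58 groups of libraries (29 named genes in 2 genotypes), 6 held a library far from the others by Dixon's test at the 95% level, which chance alone gives in about 1 in 20 groups. The ratio given is the gap to the nearest library over the range of the group. *Insl5* was high in single-knockout replicate 1 (13.9 CPM, the next 9.09, ratio 0.889), as were *Sct* (2.05 and 0.676 CPM, ratio 0.874), the transcription factor gene *Etv1* (1.15 and 0.635 CPM, ratio 0.838) and *Smad4* itself (92.7 and 55.4 CPM, ratio 0.970). *Gcg* was high in double-knockout replicate 2 (26.5 and 16.4 CPM, ratio 0.838). *Cpe* was high in double-knockout replicate 4 (45.1 and 23.9 CPM, ratio 0.760). Without single-knockout replicate 1, the log2 fold change of *Insl5* was -0.44 (adjusted p 0.201) and that of *Sct* 1.58 (adjusted p 0.0353).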

How the results depend on the processing

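*Chga*, *Chgb* and *Tph1* kept their calls in all 20 alternatives. The number of members called higher, 5 of 10, was 3 with at least 10 counts in every library (*Cck* and *Nts* not tested), 3 without the 2 libraries highest in small intestinal genes, 4 with the Y-linked term and 3 to 5 with 1 library left out, lowest without single-knockout replicate 3. DESeq2 called 1 lower (*Insl5*). Replicate numbers did not pair the libraries (r between same-numbered libraries -0.104 to 0.0878), and with a replicate block 4 members were higher, *Nts* being at 1.57 (adjusted p 0.1145). The companion count of 15 higher was 9 with at least 10 counts in every library, 7 without the 2 libraries and 9 to 18 with 1 left out. The 2 lower were 4 in DESeq2, 1 with the Y-linked term, 0 without the 2 libraries and 1 to 4 with 1 left out (1 without single-knockout replicate 2 or 4, 4 without double-knockout replicate 5). The sign of *Gcg* turned without double-knockout replicate 2 (-0.066, leave-one-out range -0.066 to 0.20) and without the 2 libraries (-0.090). That of *Smad4* turned with limma-voom (-0.18), a replicate block (-0.14), the Y-linked term (-0.71), only libraries without Y-linked counts (-0.70) and without double-knockout replicate 2 or 5 (-0.11 and -0.01, leave-one-out range -0.11 to 0.37). Over all genes, 986 higher and 955 lower calls were 1505 and 1388 in DESeq2, 1402 and 1525 in limma-voom, 653 and 632 with the Y-linked term, 1406 and 1524 in the libraries without Y-linked counts, 376 and 355 without the 2 libraries, and 455 to 1380 and 392 to 1316 with 1 left out. The causes were not tested. At 5 to 57 counts, *Cck*, *Nts* and *Sct* have wide intervals.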
